A study of Homo sapiens with 24 samples.

Results

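Genes of ribosome biogenesis and RNA polymerase I (Pol I) were followed in A549 cells as a list of 50 genes taken by symbol from the deposited expression table, which holds 58302 genes. The list was divided by role into 10 genes of Pol I transcription, 8 of the small nucleolar ribonucleoproteins (snoRNPs), 15 of small subunit assembly, 13 of large subunit assembly and 4 for abundant nucleolar proteins that act at several steps. Of the 50 genes, 49 passed the filter on low values (1 FPKM or more on average over 12 libraries), as did 12607 genes of the table. TAF1C did not pass and is given by its values alone.

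Polyadenylated RNA was sequenced from A549, an established human lung cancer cell line, in a study of how GPD1 and metformin together act on cancer cell growth. GPD1 encodes a cytosolic dehydrogenase that makes glycerol-3-phosphate, and metformin is a biguanide known to inhibit respiratory complex I. The 4 groups were cells transduced with a GPD1 lentivirus and given 10 mM metformin, cells transduced with the GPD1 lentivirus and left untreated, cells transduced with a blank vector lentivirus and given 10 mM metformin, and cells transduced with the blank vector lentivirus and left untreated. All 12 libraries thus come from lentivirus-transduced cells. Each group has 3 labelled replicates, and neither the promoter that drives GPD1 nor separate transductions are given in the labels, so a difference between GPD1 and vector cells cannot be told apart from other differences between the transduced populations. The series has 24 samples, and the other 12, of the kidney cancer line 786-O, are not analysed here.

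Ribosome biogenesis begins in the nucleolus, where Pol I transcribes the rRNA precursor with the help of the factors UBTF, RRN3 and SL1. Box C/D and box H/ACA snoRNPs then guide the methylation and pseudouridylation of the transcript, while the small subunit processome and a series of large subunit assembly factors fold and cut it into the precursors of the ribosomal subunits. The pathway is one of the main consumers of energy in growing cells, and its genes are often highly expressed in tumour cells.

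The values are read as FPKM (fragments per kilobase of exon, scaled to library depth), a level per length. Their steps correspond to 13.3 M to 18 M fragments in each library, where 1 fragment on 1 kb amounts to 0.0555 to 0.0751 FPKM. The lowest fragment number of a tested member was 69, for POLR1B in a GPD1 metformin library. GPD1 itself stood at 13.3 to 13.8 FPKM in GPD1 metformin libraries and 15.1 to 16.8 FPKM in GPD1 untreated libraries, against 0.0248 to 0.0702 FPKM in vector metformin and 0.0408 to 0.103 FPKM in vector untreated libraries. The libraries labelled GPD1 thus hold the transgene. The epithelial keratins KRT8 and KRT18 were at 64.4 to 111 and 104 to 149 FPKM, while KRT19 was at 0.0869 FPKM or less. Of the other epithelial markers, CDH1 was at 2.90 to 3.62 FPKM in GPD1 metformin libraries and 3.39 to 4.81 FPKM in GPD1 untreated libraries, against 2.26 to 2.94 FPKM in vector metformin and 9.24 to 9.29 FPKM in vector untreated libraries, and EPCAM was at 0.240 to 1.57 FPKM. Of the lung lineage genes, NKX2-1, SFTPB and SFTPC were at 0.0683 FPKM or less and NAPSA at 0.344 FPKM or less. The kidney lineage gene PAX2 was at 0.645 to 0.885 FPKM in GPD1 metformin libraries and 0.979 to 1.26 FPKM in GPD1 untreated libraries, against 0.457 to 0.717 FPKM in vector metformin and 2.43 to 2.48 FPKM in vector untreated libraries, with LHX1 at 0.782 FPKM or less and PAX8 at 0.162 FPKM or less. Several of these markers thus moved with the drug, although CDH1 overlapped between treated and untreated GPD1 libraries. CDH1 and PAX2 were also lower in untreated GPD1 than in untreated vector libraries, without overlap, as was the fibroblast gene COL1A1 (2.95 to 3.73 against 5.01 to 5.41 FPKM). Other epithelial markers were higher there, again without overlap. KRT8 was at 85.4 to 89.2 against 64.4 to 70.6 FPKM, and KRT18 at 116 to 128 against 104 to 112 FPKM. EPCAM was at 0.625 to 0.774 against 0.240 to 0.268 FPKM. The low LHX1 and PAX8 were higher there too. The part of these markers in the results was not tested. The blood, fibroblast and endothelial markers CD3E, COL1A2 and CDH5 were at 0 in all 12 libraries and PTPRC at 0.0299 FPKM or less, with COL1A1 at 2.24 to 5.41 FPKM. Mitochondrially encoded genes took 10.3% to 11.4% of the summed FPKM in GPD1 metformin libraries and 30.2% to 32.3% in GPD1 untreated libraries, against 13.7% to 14.9% in vector metformin and 32.9% to 33.2% in vector untreated libraries. Their share therefore moves with the drug, and every fold change of metformin below depends on how the libraries are scaled. The median log2 fold change of all tested genes with metformin was -0.20 in GPD1 cells and -0.10 in vector cells on the values as deposited. It was -0.49 and -0.34 with FPKM totals taken without mitochondrial genes, and -0.01 and 0.02 with median-ratio factors. Medians of the list are therefore also given relative to the median of all genes. Nothing in the labels says that replicates were separate cultures, and the p-values then measure only how far these libraries spread, which may be technical. In bulk RNA, fewer cells that express a gene and less of its RNA per cell cannot be told apart.

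Metformin lowered most of the list in GPD1 cells and moved it in both directions in vector cells. In GPD1 cells 39 of 49 tested members fell and 9 rose (limma on log2(FPKM + 1), adjusted p under 0.05), against 48.0% and 26.1% of all tested genes. In vector cells 21 fell and 18 rose, against 43.3% and 31.3% of all tested genes, so that the shares there were near the background. With FPKM totals without mitochondrial genes 41 fell and 5 rose in GPD1 cells, against 64.6% and 13.5% of all tested genes, and 27 fell and 7 rose in vector cells, against 55.4% and 21.3%. The median log2 fold change of the 49 members was -0.61 in GPD1 cells, or -0.42 relative to all genes, and -0.07 in vector cells, or 0.04 relative to all genes. Over 4 other scalings the relative median ran from -0.44 to -0.40 in GPD1 cells and from 0.01 to 0.05 in vector cells. In GPD1 cells the libraries with metformin and without it did not overlap for 48 of 49 members, against 77.1% of tested genes, and in vector cells for 36 of 49, against 76.6%. The difference between both responses, called the interaction here (the log2 fold change with metformin in GPD1 cells minus that in vector cells), was negative for 30 members and positive for 4 (limma, adjusted p under 0.05), against 26.8% and 19.1% of tested genes. Its median was -0.41, or -0.36 relative to all genes, and over the other scalings the relative median ran from -0.38 to -0.35.

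**Figure D1:**
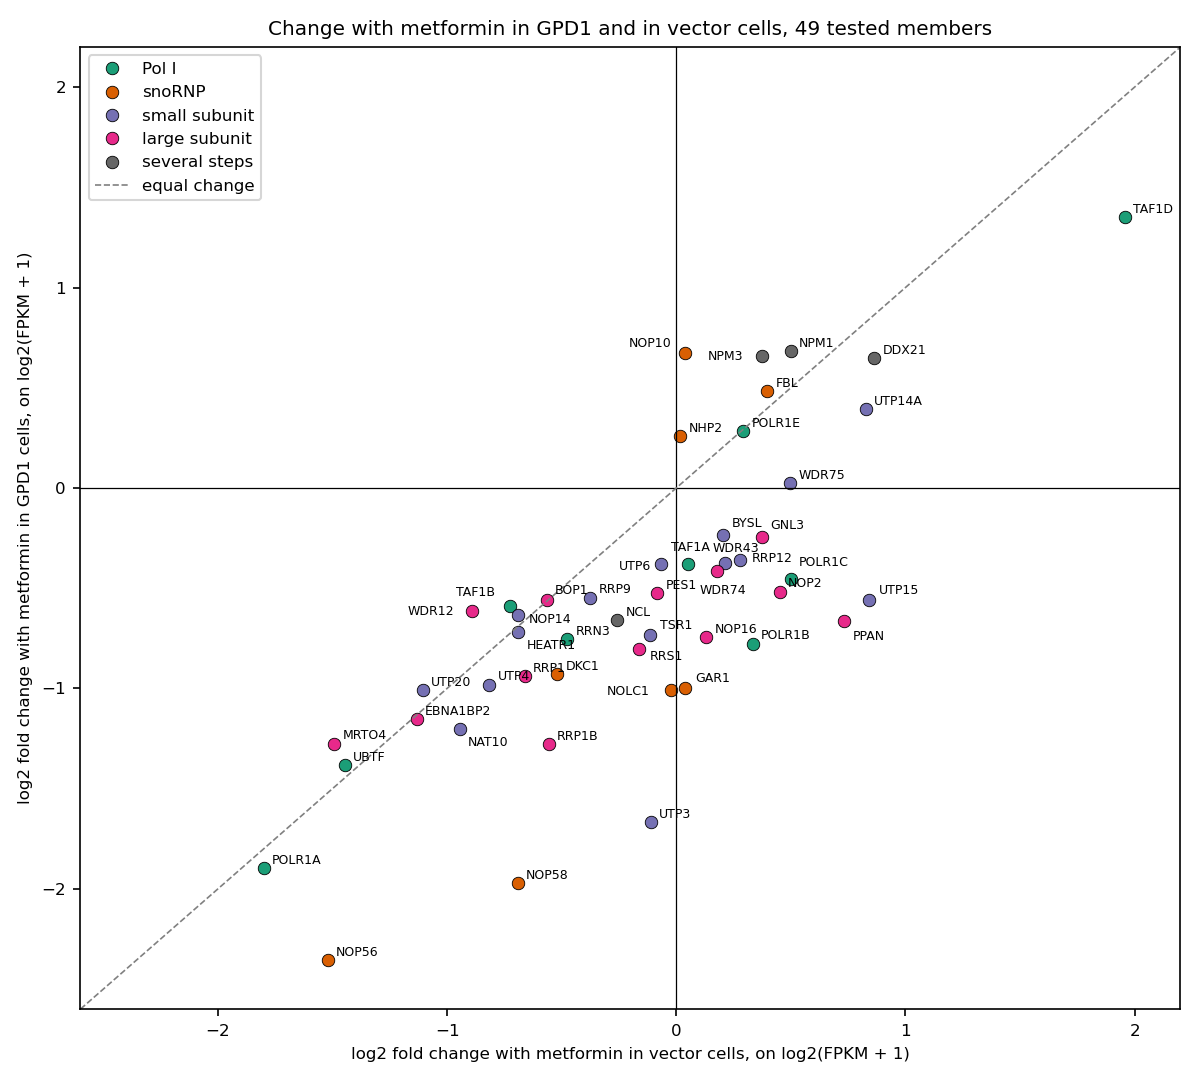
Log2 fold change with metformin of the 49 tested members in GPD1 cells (vertical axis) and in vector cells (horizontal axis), on log2(FPKM + 1), coloured by step. The dashed line marks an equal change. NOP56, NOP58 and POLR1A lie lowest, TAF1D lies at the upper right, and 10 members lie in the lower right part with calls on both axes, of which POLR1C and UTP15 keep the call in vector cells with FPKM totals without mitochondrial genes, while BYSL, WDR43 and WDR74 turn there.

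The members fell into 6 combinations of calls. Lower in both populations were 21 members, against 35.1% of all tested genes: POLR1A, UBTF, RRN3 and TAF1B of the Pol I group, NOP56, NOP58 and DKC1 of the snoRNPs, UTP4, HEATR1, UTP20, NOP14, RRP9 and NAT10 of the small subunit, BOP1, WDR12, RRP1, RRP1B, RRS1, EBNA1BP2 and MRTO4 of the large subunit, and NCL. Lower in GPD1 cells and higher in vector cells were 10 members, against 4.78% of tested genes: POLR1B, POLR1C, UTP15, WDR43, RRP12, BYSL, NOP2, WDR74, PPAN and GNL3. For each of these 10 the interaction passed the test, which follows largely from the opposite calls that chose them and is no separate support. With FPKM totals without mitochondrial genes only POLR1C and UTP15 of the 10 were still called higher in vector cells. BYSL, WDR43 and WDR74 turned to slightly negative values there, and POLR1B, RRP12, NOP2, PPAN and GNL3 no longer passed the test. With median-ratio factors the falls of RRP12, BYSL, PPAN and GNL3 in GPD1 cells did not pass it. Another 8 members fell in GPD1 cells and did not pass the test in vector cells, namely GAR1, NOLC1, NOP16, PES1, TAF1A, TSR1, UTP3 and UTP6. The share of all tested genes was not counted for this or the other combinations with a call in a single population. Higher in both were 7, against 19.7% of tested genes: POLR1E, TAF1D, FBL, UTP14A, NPM1, NPM3 and DDX21. Of these 7, TAF1D, NPM1 and DDX21 kept both calls with the totals that leave out mitochondrial genes. NHP2 and NOP10 rose in GPD1 cells and did not pass the test in vector cells, and WDR75 rose in vector cells and did not pass it in GPD1 cells. POLR1E and NHP2 turned to negative values in GPD1 cells with FPKM totals without mitochondrial genes, where NHP2 was called lower (limma, adjusted p = 0.0233). Higher in GPD1 cells and lower in vector cells were 0 members, against 1.55% of tested genes.

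Promoter sequences describe the members outside the expression table. RefSeq (GRCh38.p14) gave the window from 250 bases before to 50 bases after the start for 43 of the 50 members. The palindrome CACGTG, the E-box letters bound by MYC among other factors, was in 14 of the 43 windows (32.6%), against 10.6% of the windows of 8335 tested genes and 7.43% of all 27305 windows. CCGGAAG, letters of ETS family sites, was in 17 member windows on either strand (39.5%), against 20.6% of tested genes. CCAAT was in 15 member windows on either strand (34.9%), against 37.0% of tested genes. A match is a description of letters and not a site. Below are 180 bases, ending 30 bases after the start, of 4 members with CACGTG (in capitals) within 20 bases of the start, chosen after their values were seen because they moved in different ways. UTP20 (chr12:101279955-101280134, plus strand) and MRTO4 (chr1:19251655-19251834, plus strand) fell with metformin in both populations. WDR43 (chr2:28894517-28894696, plus strand) fell in GPD1 cells and rose in vector cells, although its rise turned with FPKM totals without mitochondrial genes. FBL (chr19:39846350-39846529, minus strand) rose in both, although its calls were lost with those totals.
UTP20: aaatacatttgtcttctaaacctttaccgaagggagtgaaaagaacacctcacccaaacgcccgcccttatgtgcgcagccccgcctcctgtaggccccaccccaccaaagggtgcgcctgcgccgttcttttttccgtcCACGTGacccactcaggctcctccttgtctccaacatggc
MRTO4: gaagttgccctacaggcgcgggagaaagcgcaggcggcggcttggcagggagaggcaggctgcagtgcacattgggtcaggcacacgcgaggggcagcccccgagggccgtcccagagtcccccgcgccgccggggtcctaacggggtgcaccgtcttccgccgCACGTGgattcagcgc
WDR43: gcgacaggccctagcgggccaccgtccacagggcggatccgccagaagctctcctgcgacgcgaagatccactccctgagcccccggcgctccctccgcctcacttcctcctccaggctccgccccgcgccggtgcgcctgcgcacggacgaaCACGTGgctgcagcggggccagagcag
FBL: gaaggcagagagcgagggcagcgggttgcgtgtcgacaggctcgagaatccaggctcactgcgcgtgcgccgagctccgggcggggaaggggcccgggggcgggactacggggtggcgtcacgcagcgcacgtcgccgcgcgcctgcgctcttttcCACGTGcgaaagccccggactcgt

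In these 4 sequences, written 5′ to 3′ on the strand of the gene, CACGTG begins 10 bases before the start in UTP20, and at base 15, 4 and 7 of the transcript in MRTO4, WDR43 and FBL. The same letters stood in 7 of 17 windows of members lower in both populations, 3 of 9 of those lower in GPD1 cells and higher in vector cells, and 2 of 6 of those higher in both. They also stood in 1 of 7 windows of members lower in GPD1 cells and not called in vector cells, and in 1 of 2 of those higher in GPD1 cells and not called in vector cells. The 14 tested members with the letters had a median log2 fold change with metformin of -0.54 in GPD1 cells, and the 28 without them -0.64. In vector cells the medians were -0.23 with the letters and 0.03 without them. The letters thus stood in members that rose and in members that fell.

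**Figure D2:**
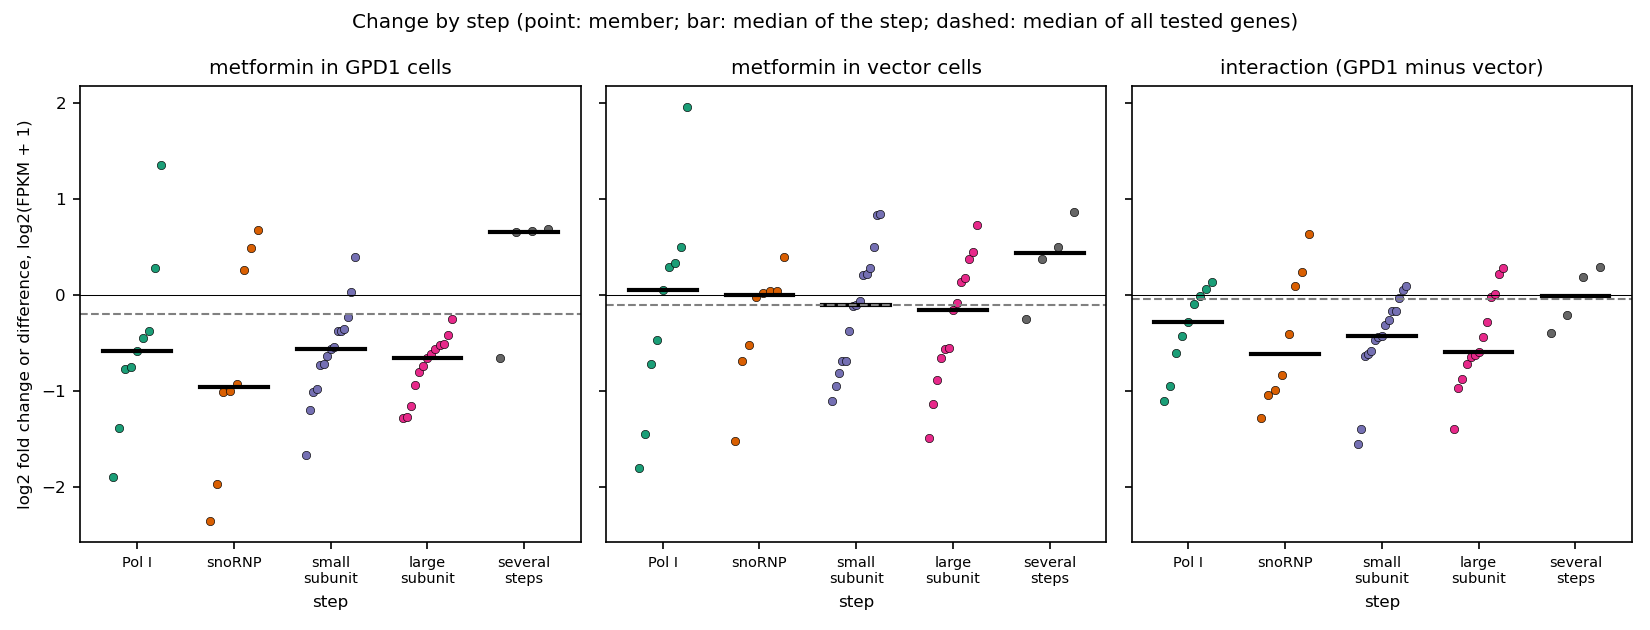
Log2 fold change of each tested member by step with metformin in GPD1 cells and in vector cells, and the interaction, on log2(FPKM + 1). Bars mark the median of a step and dashed lines the median of all tested genes; in GPD1 cells the snoRNP bar is lowest at -0.96 and the bar of the abundant nucleolar proteins stands at 0.65.

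Genes of Pol I transcription moved in both directions. With metformin 7 of the 9 tested genes fell and 2 rose in GPD1 cells, against 48.0% and 26.1% of all tested genes. Their median log2 fold change was -0.59, or -0.39 relative to all genes. In vector cells 4 fell and 4 rose, against 43.3% and 31.3% of all tested genes. The median there was 0.05, or 0.15 relative to all genes. The enzyme's own subunits did not move together. POLR1A (ENSG00000068654, GRCh38 chromosome 2, 86020216 to 86106155) encodes the largest, catalytic subunit. In GPD1 cells POLR1A stood at 1.76, 1.73 and 1.88 FPKM with metformin, against 9.38, 9.23 and 9.52 FPKM without it. In vector cells it stood at 2.78, 2.21 and 1.71 FPKM with the drug, against 10.5, 10.1 and 9.96 FPKM without it. No treated library reached 3 FPKM and no untreated one lay under 9. POLR1A fell 5.24-fold in GPD1 cells (log2 fold change -1.90, SE 0.09, limma, adjusted p = 2.08e-08) and 4.55-fold in vector cells (log2 fold change -1.80, SE 0.09, limma, adjusted p = 2.44e-08), and the interaction was -0.10 (SE 0.13, adjusted p = 0.593 by limma). POLR1B, the second largest subunit, which forms the active centre with POLR1A, was the weakest tested member. It stood at 0.836, 0.860 and 0.702 FPKM with metformin in GPD1 cells, against 1.70, 2.47 and 2.11 FPKM without it. In vector cells POLR1B had 3.44, 3.31 and 2.81 FPKM with metformin, against 2.37, 2.38 and 2.19 FPKM without it. Its treated libraries lay below the untreated ones in GPD1 cells and above them in vector cells. It fell 2.62-fold in GPD1 cells (log2 fold change -0.78, SE 0.09, limma, adjusted p = 1.91e-05) and rose 1.38-fold in vector cells (log2 fold change 0.33, SE 0.09, limma, adjusted p = 0.00712), with an interaction of -1.11 (SE 0.13, adjusted p = 6.78e-05 by limma). The vector call was lost with FPKM totals without mitochondrial genes (0.12, limma, adjusted p = 0.288). POLR1C, a subunit shared with RNA polymerase III, changed with the same signs.

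POLR1C stood at 1.43, 1.34 and 1.23 FPKM with metformin in GPD1 cells, against 1.98, 2.16 and 2.44 FPKM without it. In vector cells it had 3.92, 4.07 and 3.77 FPKM with metformin, against 2.62, 2.47 and 2.36 FPKM without it. The 3 treated GPD1 libraries were the lowest of the 12 and the 3 treated vector libraries the highest. POLR1C fell 1.65-fold in GPD1 cells (log2 fold change -0.45, SE 0.06, limma, adjusted p = 6.61e-05), rose 1.58-fold in vector cells (log2 fold change 0.50, SE 0.06, limma, adjusted p = 2.89e-05) and had an interaction of -0.95 (SE 0.09, adjusted p = 1.46e-05 by limma). POLR1E, the human counterpart of yeast A49 that helps the enzyme to start, was the only one of the 4 core subunits called higher in both populations. It stood at 16.2, 17.1 and 16.2 FPKM with metformin in GPD1 cells, against 13.6, 13.1 and 13.4 FPKM without it, and the groups did not overlap. In vector cells POLR1E stood at 19.2, 22.1 and 20.5 FPKM with metformin, against 16.6, 16 and 17.3 FPKM without it, again without overlap. The rises were small, at a log2 fold change of 0.28 (SE 0.05, adjusted p = 0.000529 by limma) in GPD1 cells, which turned to -0.08 (limma, adjusted p = 0.128) with FPKM totals without mitochondrial genes, and 0.29 (SE 0.05, adjusted p = 0.000412 by limma) in vector cells, which was 0.0088 (limma, adjusted p = 0.874) with those totals.

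Of the initiation factors, UBTF, which binds and opens the rRNA genes, fell in both populations. UBTF stood at 5.18, 4.77 and 5.13 FPKM with metformin in GPD1 cells, against 14.7, 14.5 and 14.8 FPKM without it. In vector cells UBTF had 5.04, 5.48 and 5.48 FPKM with metformin, against 17.0, 16.2 and 15.6 FPKM without it. It fell 2.92-fold in GPD1 cells (log2 fold change -1.38, SE 0.05, limma, adjusted p = 1.96e-09) and 3.05-fold in vector cells (log2 fold change -1.45, SE 0.05, limma, adjusted p = 8.98e-10), and the interaction of 0.06 (SE 0.07, adjusted p = 0.475 by limma) did not pass the test. RRN3, which carries Pol I to the promoter, fell by 0.76 on the log2 scale in GPD1 cells (limma, adjusted p = 8.20e-06) and by 0.48 in vector cells (limma, adjusted p = 0.00029). RRN3 has 3 pseudogenes in the table, at 0.680 to 1.35 FPKM.

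SL1, the promoter selectivity factor that holds TBP, was split. TAF1D (ENSG00000166012, chromosome 11, 93729948 to 93784391) had the largest rise of the list. It stood at 7.87, 8.63 and 7.52 FPKM with metformin in GPD1 cells, against 2.58, 2.53 and 2.46 FPKM without it. In vector cells TAF1D reached 14.5, 14.2 and 14.6 FPKM with metformin, against 2.92, 2.96 and 3.03 FPKM without it. The 4 groups did not overlap in any pair that was compared. TAF1D rose 3.17-fold in GPD1 cells (log2 fold change 1.35, SE 0.05, limma, adjusted p = 2.30e-09) and 4.86-fold in vector cells (log2 fold change 1.96, SE 0.05, limma, adjusted p = 1.52e-10), and the rise was smaller in GPD1 cells, with an interaction of -0.61 (SE 0.07, adjusted p = 4.89e-05 by limma). The gene holds 8 snoRNA genes, the most of any member. TAF1B fell by 0.59 on the log2 scale in GPD1 cells (limma, adjusted p = 6.96e-06) and by 0.72 in vector cells (limma, adjusted p = 1.19e-06). TAF1A fell by 0.38 in GPD1 cells (limma, adjusted p = 0.00997, or 0.114 with median-ratio factors) and had a log2 fold change of 0.05 in vector cells that did not pass the test. TAF1C, too low to be tested, stood at 0.334 ± 0.0537 FPKM with metformin and 1.22 ± 0.12 FPKM without it in GPD1 cells, and at 0.398 ± 0.0756 FPKM and 1.18 ± 0.0893 FPKM in vector cells (mean ± SD, n = 3).

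**Figure D3:**
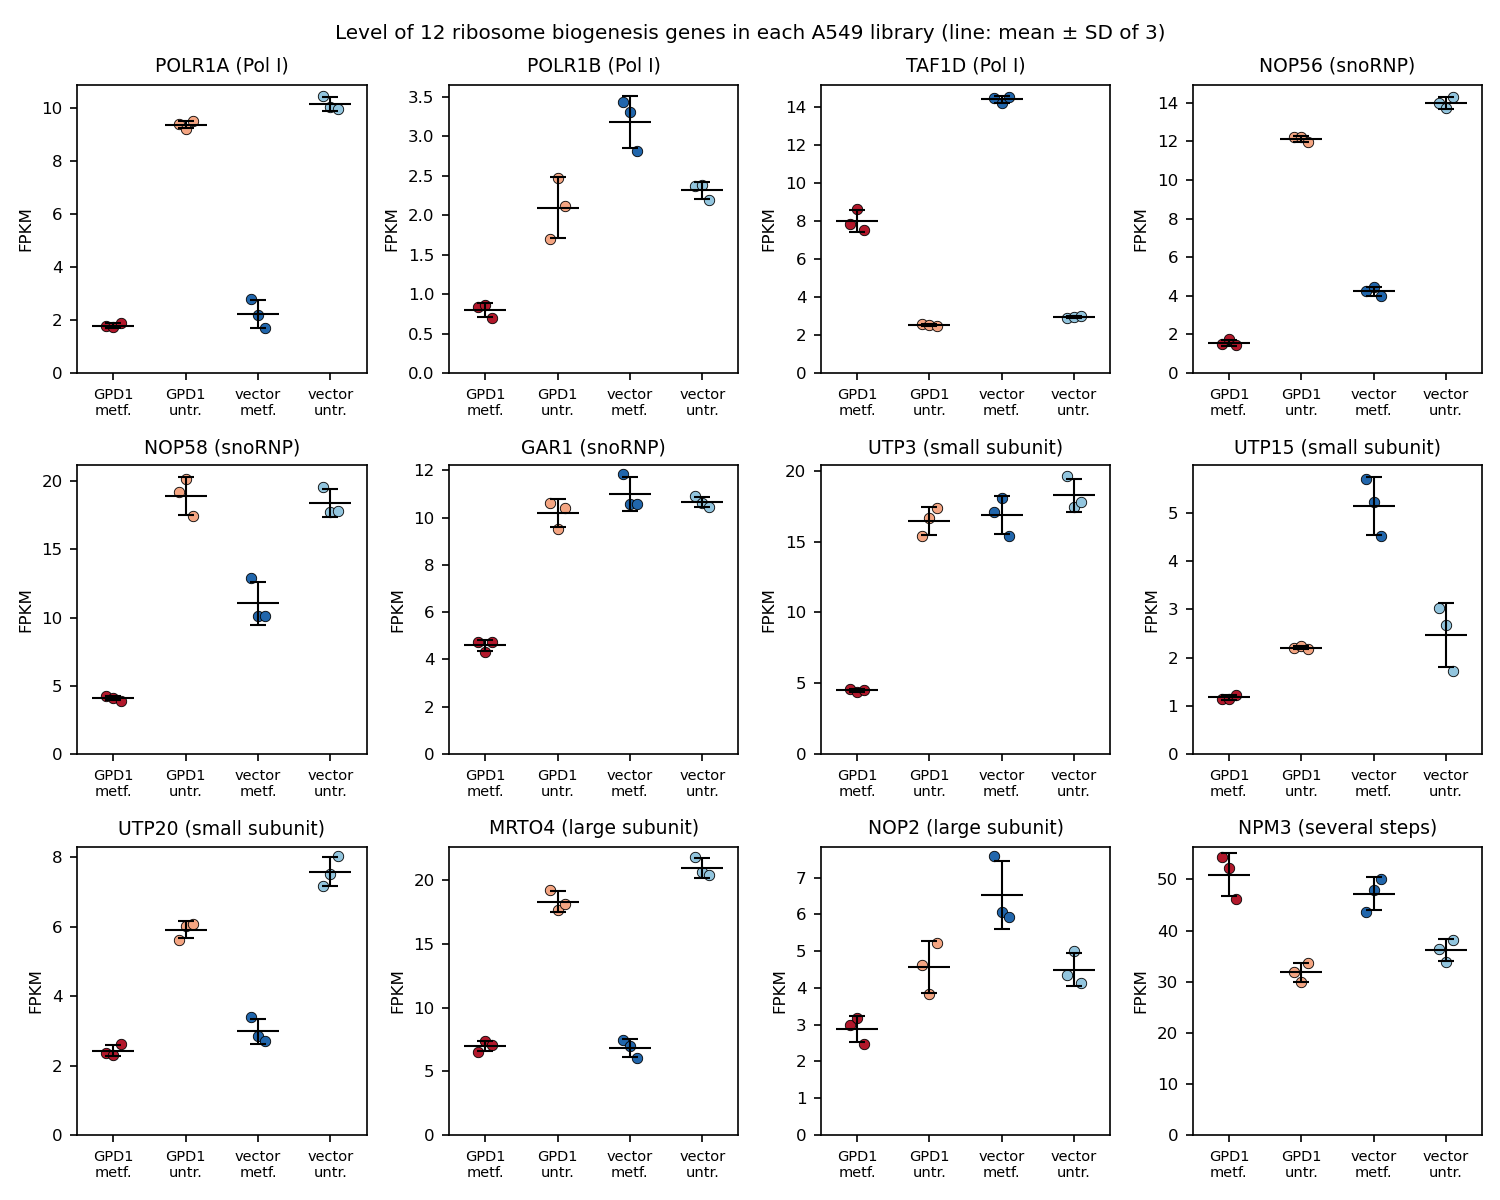
FPKM of 12 members in each library, as points, with the mean and SD of the 3 libraries of a group, from left GPD1 metformin, GPD1 untreated, vector metformin and vector untreated. POLR1A is low in both treated groups, UTP3 and GAR1 are low in the GPD1 metformin libraries while the other 3 groups lie close together, and TAF1D is high in both treated groups.

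The largest fall of the list in GPD1 cells was that of a snoRNP protein. In GPD1 cells 5 of the 8 fell with metformin and 3 rose, against 48.0% and 26.1% of all tested genes. Their median log2 fold change was -0.96, or -0.77 relative to all genes. In vector cells 3 fell, 1 rose and 4 did not pass the test, against 43.3% of all tested genes that fell and 31.3% that rose. The median there was -0.00, or 0.10 relative to all genes. NOP56 (ENSG00000101361, chromosome 20, 2652145 to 2658393) and NOP58 (ENSG00000055044, chromosome 2, 202265716 to 202303666) form the scaffold of the box C/D snoRNP, in which fibrillarin (FBL) is the methyltransferase. NOP56 stood at 1.51, 1.75 and 1.46 FPKM with metformin in GPD1 cells, against 12.2, 12.2 and 12 FPKM without it. In vector cells NOP56 stood at 4.24, 4.46 and 3.97 FPKM with metformin, against 14, 13.7 and 14.3 FPKM without it. The treated libraries of the GPD1 cells lay under those of the vector cells, which in turn lay under all untreated libraries. NOP56 fell 7.72-fold in GPD1 cells (log2 fold change -2.35, SE 0.05, limma, adjusted p = 2.28e-10) and 3.31-fold in vector cells (log2 fold change -1.52, SE 0.05, limma, adjusted p = 1.20e-09), a difference of -0.83 (SE 0.07, adjusted p = 1.08e-05 by limma). NOP58 had 4.22, 4.10 and 3.91 FPKM with metformin in GPD1 cells, against 19.2, 20.2 and 17.4 FPKM without it. In vector cells NOP58 had 12.9, 10.1 and 10.1 FPKM with metformin, against 19.6, 17.8 and 17.8 FPKM without it. It followed the same order as NOP56, with a fall of 4.64-fold in GPD1 cells (log2 fold change -1.97, SE 0.09, limma, adjusted p = 9.27e-09) and 1.66-fold in vector cells (log2 fold change -0.69, SE 0.09, limma, adjusted p = 2.66e-05) and an interaction of -1.28 (SE 0.12, adjusted p = 1.70e-05 by limma).

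FBL did not share in this. It stood at 85.0, 91.9 and 83.7 FPKM with metformin in GPD1 cells, against 59.2, 63.8 and 62.4 FPKM without it. In vector cells FBL had 90.7, 80.6 and 88.2 FPKM with metformin, against 65.7, 66.5 and 63.9 FPKM without it. FBL was the only one of the 3 box C/D proteins in the list that rose, 1.41-fold in GPD1 cells (log2 fold change 0.48, SE 0.05, limma, adjusted p = 1.00e-05) and 1.32-fold in vector cells (log2 fold change 0.40, SE 0.05, limma, adjusted p = 4.57e-05). With FPKM totals without mitochondrial genes both values were 0.10 and neither passed the test (limma, adjusted p = 0.159 and 0.146). NOP56 holds 5 snoRNA genes and NOP58 holds 4, and FBL holds none.

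The 4 proteins of the box H/ACA snoRNP, which makes pseudouridine, divided into a pair that fell and a pair that rose in GPD1 cells. GAR1 stood at 4.73, 4.30 and 4.74 FPKM with metformin in GPD1 cells, against 10.6, 9.53 and 10.4 FPKM without it. In vector cells GAR1 stood at 11.8, 10.6 and 10.6 FPKM with metformin, against 10.9, 10.6 and 10.5 FPKM without it. The GPD1 metformin libraries stood apart, and the other 3 groups lay within 9.53 to 11.8 FPKM. GAR1 fell 2.22-fold in GPD1 cells (log2 fold change -1.0, SE 0.06, limma, adjusted p = 6.07e-08) and had a log2 fold change of 0.04 (SE 0.06, adjusted p = 0.559 by limma) in vector cells, with an interaction of -1.04 (SE 0.08, adjusted p = 4.37e-06 by limma). DKC1, the pseudouridine synthase dyskerin, fell by 0.93 on the log2 scale in GPD1 cells (limma, adjusted p = 7.18e-07) and by 0.52 in vector cells (limma, adjusted p = 6.66e-05). NOP10, a small protein that rests on dyskerin, stood at 83.0, 80.4 and 78.4 FPKM with metformin in GPD1 cells, against 54.6, 40.1 and 57.8 FPKM without it. In vector cells NOP10 had 85.7, 89.6 and 71.7 FPKM with metformin, against 78.0, 80.4 and 80.9 FPKM without it. The GPD1 untreated libraries lay below the other 9. NOP10 rose 1.59-fold in GPD1 cells (log2 fold change 0.67, SE 0.12, limma, adjusted p = 0.000419), had a log2 fold change of 0.04 (SE 0.12, adjusted p = 0.78 by limma) in vector cells, and had an interaction of 0.63 (SE 0.17, adjusted p = 0.0111 by limma).

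NHP2, which binds the snoRNA fold next to NOP10, was higher in GPD1 metformin libraries than in any other group. It stood at 55.7, 56.7 and 54.5 FPKM with metformin in GPD1 cells, against 45.9, 45.4 and 47.8 FPKM without it. In vector cells NHP2 had 39.1, 43.5 and 43.7 FPKM with metformin, against 43.6, 41.3 and 39.7 FPKM without it. NHP2 rose 1.2-fold in GPD1 cells (log2 fold change 0.26, SE 0.05, limma, adjusted p = 0.000856). With FPKM totals without mitochondrial genes it turned to -0.13 and was called lower (limma, adjusted p = 0.0233). In vector cells NHP2 had a log2 fold change of 0.02 (SE 0.05, adjusted p = 0.769 by limma). The interaction was 0.24 (SE 0.07, adjusted p = 0.0191 by limma), or 0.15 (limma, adjusted p = 0.0786) with FPKM totals without mitochondrial genes. NHP2 shares 27.4% of its exon bases with RMND5B on the other strand and has the copy NHP2P1 at a mean of 8.19 FPKM. The kit states no strand, so reads of overlapping genes cannot be told apart. Other members with such overlaps on the other strand include HEATR1 (23.2% of exon bases, with LGALS8), TSR1 (20.7%, with SRR) and EBNA1BP2 (18.8%, with CFAP57). NOLC1, a chaperone that carries snoRNPs to the nucleolus, fell to a mean of 7.43 FPKM with metformin in GPD1 cells, against 16 FPKM without it (log2 fold change -1.01, SE 0.15, limma, adjusted p = 0.000121). In vector cells NOLC1 was at 15.2 ± 4.30 FPKM with metformin and 15.2 ± 2.15 FPKM without it (mean ± SD, n = 3). Its log2 fold change there was -0.02 (SE 0.15, adjusted p = 0.896 by limma), and this spread leaves the value imprecise.

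Small subunit genes mostly fell in GPD1 cells, where 13 of 15 were lower with metformin, 1 was higher and 1 did not pass the test. Of all tested genes 48.0% fell there and 26.1% rose. The median log2 fold change of the step was -0.56, or -0.37 relative to all genes. In vector cells 6 fell, 6 rose and 3 did not pass the test, against 43.3% of all tested genes that fell and 31.3% that rose. The median there was -0.11, or -0.01 relative to all genes. UTP3 (ENSG00000132467, chromosome 4, 70688479 to 70690551), a processome protein that in yeast (Sas10) binds the pre-rRNA, had the interaction with the smallest p of the list. It stood at 4.59, 4.40 and 4.49 FPKM with metformin in GPD1 cells, against 15.4, 16.7 and 17.3 FPKM without it. In vector cells UTP3 stood at 17.1, 18.1 and 15.4 FPKM with metformin, against 19.6, 17.4 and 17.8 FPKM without it. The GPD1 metformin libraries lay far below the other 9 libraries, which spanned 15.4 to 19.6 FPKM. UTP3 fell 3.66-fold in GPD1 cells (log2 fold change -1.67, SE 0.07, limma, adjusted p = 4.71e-09) and had a log2 fold change of -0.11 (SE 0.07, adjusted p = 0.151 by limma) in vector cells. The interaction was -1.56 (SE 0.09, adjusted p = 9.77e-07 by limma). UTP20, a scaffold of the processome whose promoter is printed above, fell in both populations. It stood at 2.37, 2.32 and 2.62 FPKM with metformin in GPD1 cells, against 5.63, 6.03 and 6.09 FPKM without it. In vector cells UTP20 stood at 3.40, 2.85 and 2.72 FPKM with metformin, against 7.19, 7.53 and 8.02 FPKM without it. It fell 2.43-fold in GPD1 cells (log2 fold change -1.01, SE 0.07, limma, adjusted p = 2.42e-07) and 2.53-fold in vector cells (log2 fold change -1.11, SE 0.07, limma, adjusted p = 1.02e-07), with an interaction of 0.10 (SE 0.10, adjusted p = 0.458 by limma).

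The UTP-A subcomplex, which is the first part of the processome to bind the nascent transcript, was represented by 5 genes that took different courses. UTP15 stood at 1.13, 1.15 and 1.23 FPKM with metformin in GPD1 cells, against 2.21, 2.23 and 2.17 FPKM without it. In vector cells UTP15 stood at 5.70, 5.23 and 4.51 FPKM with metformin, against 3.02, 2.66 and 1.72 FPKM without it. The treated libraries were the lowest of all in GPD1 cells and the highest in vector cells. UTP15 fell 1.88-fold in GPD1 cells (log2 fold change -0.56, SE 0.12, limma, adjusted p = 0.00177) and rose 2.09-fold in vector cells (log2 fold change 0.84, SE 0.12, limma, adjusted p = 9.37e-05), with an interaction of -1.40 (SE 0.18, adjusted p = 9.82e-05 by limma). WDR43, another subunit, had 14.9, 14.8 and 15.0 FPKM with metformin in GPD1 cells, against 20.2, 19.5 and 19.2 FPKM without it. In vector cells WDR43 had 26.1, 24.6 and 23.7 FPKM with metformin, against 22.4, 20.9 and 20.4 FPKM without it. The groups did not overlap within either population, at log2 fold changes of -0.37 (SE 0.05, adjusted p = 2.81e-05 by limma) in GPD1 cells and 0.21 (SE 0.05, adjusted p = 0.0016 by limma) in vector cells. The vector value turned to -0.07 with FPKM totals without mitochondrial genes, while the interaction of -0.59 (SE 0.07, adjusted p = 4.88e-05 by limma) ran from -0.67 to -0.45 over the scalings. UTP4 and HEATR1 fell in both populations, at -0.98 and -0.72 in GPD1 cells and -0.82 and -0.69 in vector cells. WDR75 rose in vector cells by 0.50 (limma, adjusted p = 2.74e-06) and had 0.02 in GPD1 cells.

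UTP14A, which in yeast (Utp14) activates a helicase of the processome, was the only small subunit gene called higher in GPD1 cells. It stood at 11.3, 11.2 and 9.97 FPKM with metformin in GPD1 cells, against 7.6, 7.64 and 8.80 FPKM without it. In vector cells UTP14A had 18.8, 20.2 and 17.7 FPKM with metformin, against 9.77, 10.1 and 10.7 FPKM without it. UTP14A rose 1.35-fold in GPD1 cells (log2 fold change 0.39, SE 0.07, limma, adjusted p = 0.000454), a call lost with FPKM totals without mitochondrial genes (0.04, limma, adjusted p = 0.572). In vector cells it rose 1.85-fold (log2 fold change 0.83, SE 0.07, limma, adjusted p = 1.28e-06). NAT10, which acetylates the small subunit rRNA, had 3.43, 3.64 and 3.26 FPKM with metformin in GPD1 cells, against 9.12, 9.31 and 9.23 FPKM without it. In vector cells NAT10 had 5.11, 4.67 and 4.52 FPKM with metformin, against 10.5, 9.47 and 10.3 FPKM without it. NAT10 fell 2.68-fold in GPD1 cells (log2 fold change -1.20, SE 0.06, limma, adjusted p = 1.22e-08) and 2.12-fold in vector cells (log2 fold change -0.94, SE 0.06, limma, adjusted p = 5.68e-08).

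TSR1, a factor of late pre-small-subunit particles, stood at 9.19, 9.08 and 9.40 FPKM with metformin in GPD1 cells, against 16, 15.5 and 16.6 FPKM without it. In vector cells TSR1 stood at 18.9, 16.9 and 16.8 FPKM with metformin, against 19.5, 18.9 and 18.8 FPKM without it. The groups did not overlap in GPD1 cells, and in vector cells 1 treated library reached the range of the untreated ones. TSR1 fell 1.74-fold in GPD1 cells (log2 fold change -0.73, SE 0.05, limma, adjusted p = 1.97e-07) and had a log2 fold change of -0.12 (SE 0.05, adjusted p = 0.0527 by limma) in vector cells, with an interaction of -0.62 (SE 0.07, adjusted p = 4.96e-05 by limma). RRP12 and BYSL, which act late in small subunit maturation and export in yeast (Rrp12, Enp1), fell by 0.36 and 0.24 in GPD1 cells and rose by 0.28 and 0.21 in vector cells, where RRP12 was at 0.02 and BYSL turned to -0.05 with FPKM totals without mitochondrial genes. With median-ratio factors their falls in GPD1 cells were 0.16 and 0.03 and did not pass the test (limma, adjusted p = 0.0779 and 0.749). The fall of BYSL in GPD1 cells was close to the median of all tested genes. Its calls were lost without any 1 of 5 libraries in GPD1 cells (limma, adjusted p = 0.0513 to 0.0694) and any 1 of 10 in vector cells (limma, adjusted p = 0.0598 to 0.196), where it was 0.11 without vector untreated replicate 3. The remaining processome genes UTP6, NOP14 and RRP9 fell in GPD1 cells by 0.38, 0.63 and 0.55 on the log2 scale. In vector cells NOP14 and RRP9 fell by 0.69 and 0.37, and UTP6 had -0.07.

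Large subunit genes fell in GPD1 cells, where all 13 were called lower with metformin on the values as deposited, against 48.0% of all tested genes. Their median log2 fold change was -0.66, or -0.47 relative to all genes. With median-ratio or upper-quartile factors GNL3 and PPAN were no longer called. In vector cells 7 fell, 4 rose and 2 did not pass the test, against 43.3% of all tested genes that fell and 31.3% that rose. The median there was -0.16, or -0.06 relative to all genes. MRTO4, related to the stalk protein P0 and in yeast (Mrt4) its placeholder on the precursor, stood at 6.53, 7.37 and 7.04 FPKM with metformin in GPD1 cells, against 19.2, 17.6 and 18.1 FPKM without it. In vector cells MRTO4 stood at 7.48, 6.96 and 6.06 FPKM with metformin, against 21.9, 20.7 and 20.4 FPKM without it. Treated libraries of both populations overlapped each other and lay far below the untreated ones. MRTO4 fell 2.62-fold in GPD1 cells (log2 fold change -1.28, SE 0.07, limma, adjusted p = 3.91e-08) and 3.07-fold in vector cells (log2 fold change -1.49, SE 0.07, limma, adjusted p = 9.93e-09). EBNA1BP2, the counterpart of yeast Ebp2, stood at 5.07, 5.40 and 5.48 FPKM with metformin in GPD1 cells, against 13.7, 12.3 and 13.2 FPKM without it. In vector cells EBNA1BP2 had 5.38, 5.87 and 6.15 FPKM with metformin, against 13.9, 13.8 and 14.1 FPKM without it. It also fell in both, 2.46-fold in GPD1 cells (log2 fold change -1.15, SE 0.05, limma, adjusted p = 1.45e-08) and 2.40-fold in vector cells (log2 fold change -1.13, SE 0.05, limma, adjusted p = 1.25e-08). The interaction did not pass the test for MRTO4 (log2 difference 0.22, SE 0.10, limma, adjusted p = 0.0954) or for EBNA1BP2 (log2 difference -0.02, SE 0.08, limma, adjusted p = 0.854).

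RRP1B, one of a pair of human counterparts of yeast Rrp1, stood at 2.84, 3.21 and 3.63 FPKM with metformin in GPD1 cells, against 9.99, 9.04 and 8.70 FPKM without it. In vector cells RRP1B stood at 7.36, 6.24 and 5.38 FPKM with metformin, against 9.83, 9.76 and 9.54 FPKM without it. RRP1B fell 2.86-fold in GPD1 cells (log2 fold change -1.28, SE 0.10, limma, adjusted p = 5.24e-07) and 1.53-fold in vector cells (log2 fold change -0.56, SE 0.10, limma, adjusted p = 0.000341), with an interaction of -0.72 (SE 0.14, adjusted p = 0.00155 by limma). Its paralogue RRP1 fell 2.42-fold in GPD1 cells (log2 fold change -0.94, SE 0.06, limma, adjusted p = 1.20e-07) and 1.75-fold in vector cells (log2 fold change -0.66, SE 0.06, limma, adjusted p = 1.71e-06). NOP16, a nucleolar protein of large subunit assembly, stood at 2.28, 2.36 and 2.19 FPKM with metformin in GPD1 cells, against 4.55, 4.13 and 4.79 FPKM without it. In vector cells NOP16 had 5.84, 5.57 and 5.09 FPKM with metformin, against 4.86, 4.79 and 5.16 FPKM without it. It fell 1.97-fold in GPD1 cells (log2 fold change -0.74, SE 0.06, limma, adjusted p = 8.20e-07), had a log2 fold change of 0.13 (SE 0.06, adjusted p = 0.0712 by limma) in vector cells and had an interaction of -0.87 (SE 0.08, adjusted p = 1.80e-05 by limma). NOP16 shares 7.93% of its exon bases with HIGD2A on the other strand, whose means were 169 ± 1.11 FPKM with metformin and 99.8 ± 4.10 FPKM without it in GPD1 cells and 117 ± 2.43 FPKM with metformin and 93.0 ± 6.14 FPKM without it in vector cells (mean ± SD, n = 3).

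NOP2, a methyltransferase of the large subunit rRNA, was lower with metformin in GPD1 cells and higher in vector cells. NOP2 shares 54.4% of its exon bases with AC006064.6 on the same strand, for which no level was available, and the part of this overlap was not tested. It stood at 2.99, 3.18 and 2.48 FPKM with metformin in GPD1 cells, against 4.63, 3.83 and 5.23 FPKM without it. In vector cells NOP2 stood at 7.59, 6.07 and 5.92 FPKM with metformin, against 4.36, 5.00 and 4.13 FPKM without it. NOP2 fell 1.59-fold in GPD1 cells (log2 fold change -0.52, SE 0.12, limma, adjusted p = 0.00199) and rose 1.45-fold in vector cells (log2 fold change 0.45, SE 0.12, limma, adjusted p = 0.0046), a call lost with FPKM totals without mitochondrial genes (0.20, limma, adjusted p = 0.140). PPAN, the counterpart of yeast Ssf1, stood at 2.06, 2.42 and 2.70 FPKM with metformin in GPD1 cells, against 5.26, 3.26 and 4.77 FPKM without it. In vector cells PPAN stood at 8.63, 8.65 and 6.0 FPKM with metformin, against 5.24, 2.22 and 6.07 FPKM without it, and the groups overlapped. PPAN shares 56.0% of its exon bases with the readthrough gene PPAN-P2RY11, which was listed at 0 in 8 libraries. In each group it was above 0 only in the library where PPAN was lowest. Its values there were 1.47 FPKM in GPD1 metformin, 2.08 FPKM in GPD1 untreated, 2.12 FPKM in vector metformin and 5.45 FPKM in vector untreated cells. How reads were shared between both genes is not given, and its part in the changes of PPAN was not tested. PPAN fell 1.85-fold in GPD1 cells (log2 fold change -0.66, SE 0.27, limma, adjusted p = 0.0433) and rose 1.72-fold in vector cells (log2 fold change 0.73, SE 0.27, limma, adjusted p = 0.0285). Without vector untreated replicate 2 the vector value was 0.38 and was no longer called (limma, adjusted p = 0.0883), and without vector metformin replicate 1 or 2 the adjusted p was 0.0831. With FPKM totals without mitochondrial genes it was 0.48 (limma, adjusted p = 0.127). In GPD1 cells the call was lost without any 1 of 7 libraries (limma, adjusted p = 0.0528 to 0.130).

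The PeBoW complex, made of PES1, BOP1 and WDR12 and needed to process the large subunit rRNA, fell as a whole in GPD1 cells, at -0.52, -0.56 and -0.61. In vector cells BOP1 fell by 0.56 and WDR12 by 0.89, and PES1 had -0.08, which did not pass the test. WDR12 stood at 3.20, 3.54 and 3.09 FPKM with metformin in GPD1 cells, against 5.57, 5.86 and 5.20 FPKM without it. In vector cells WDR12 had 2.86, 2.49 and 2.64 FPKM with metformin, against 5.85, 5.91 and 5.63 FPKM without it. WDR12 was the only large subunit gene with a positive interaction that passed the test (log2 difference 0.28, SE 0.08, limma, adjusted p = 0.0194), a call lost with FPKM totals without mitochondrial genes (limma, adjusted p = 0.0967). The remaining members were RRS1, which brings the 5S particle to the precursor in yeast, WDR74, a nucleolar partner of the ATPase NVL, and GNL3, the nucleolar GTPase nucleostemin. RRS1 fell by 0.80 in GPD1 cells and by 0.16 in vector cells (limma, adjusted p = 9.93e-07 and 0.0458), the second lost without any 1 of 8 libraries (limma, adjusted p = 0.0517 to 0.173) and with median-ratio factors (-0.01, limma, adjusted p = 0.878). WDR74 and GNL3 fell by 0.41 and 0.25 in GPD1 cells and rose by 0.18 and 0.37 in vector cells, where WDR74 turned to -0.07 and GNL3 was at 0.09 (limma, adjusted p = 0.283) with FPKM totals without mitochondrial genes. The fall of GNL3 in GPD1 cells was close to the median of all tested genes and was -0.01 with median-ratio factors (limma, adjusted p = 0.908). The vector call of WDR74 was also lost without vector metformin replicate 2 or vector untreated replicate 2 (limma, adjusted p = 0.0520 and 0.0582).

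Of the 4 abundant nucleolar proteins, NPM1 (nucleophosmin), NPM3 and the helicase DDX21 rose in both populations, and NCL (nucleolin) fell in both. NPM1, a chaperone of the granular layer of the nucleolus and the most abundant member, stood at 183, 193 and 185 FPKM with metformin in GPD1 cells, against 123, 117 and 109 FPKM without it. In vector cells NPM1 had 167, 177 and 167 FPKM with metformin, against 126, 115 and 119 FPKM without it. NPM1 rose 1.61-fold in GPD1 cells (log2 fold change 0.68, SE 0.05, limma, adjusted p = 5.49e-07) and 1.42-fold in vector cells (log2 fold change 0.50, SE 0.05, limma, adjusted p = 6.19e-06). The processed copy NPM1P27 was listed at 336 ± 21.7 FPKM with metformin and 216 ± 14 FPKM without it in GPD1 cells (mean ± SD, n = 3), above NPM1 itself, and how reads were shared between them is not given in the sources used here. NPM3, a smaller relative of NPM1, had 54.4, 52.2 and 46.2 FPKM with metformin in GPD1 cells, against 31.8, 30 and 33.6 FPKM without it. In vector cells NPM3 had 43.7, 47.9 and 50.01 FPKM with metformin, against 36.4, 33.8 and 38.2 FPKM without it. It rose 1.60-fold in GPD1 cells (log2 fold change 0.66, SE 0.07, limma, adjusted p = 1.24e-05) and 1.31-fold in vector cells (log2 fold change 0.37, SE 0.07, limma, adjusted p = 0.000866), where the call was lost with FPKM totals without mitochondrial genes (0.08, limma, adjusted p = 0.268).

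DDX21, which works on rRNA transcription and processing, stood at 54.3, 57.1 and 56.2 FPKM with metformin in GPD1 cells, against 36.0, 35.8 and 34.1 FPKM without it. In vector cells DDX21 stood at 80.3, 76.9 and 72.2 FPKM with metformin, against 42.7, 41.5 and 40.4 FPKM without it. DDX21 rose 1.58-fold in GPD1 cells (log2 fold change 0.65, SE 0.05, limma, adjusted p = 2.84e-07) and 1.84-fold in vector cells (log2 fold change 0.86, SE 0.05, limma, adjusted p = 2.61e-08). NCL, which binds nascent rRNA, stood at 48.8, 44.3 and 44.1 FPKM with metformin in GPD1 cells, against 70.2, 74.0 and 73.8 FPKM without it. In vector cells NCL stood at 63.4, 65.2 and 65.6 FPKM with metformin, against 78.3, 77.2 and 77.1 FPKM without it. Treated and untreated libraries of NCL did not overlap in either population. It fell 1.59-fold in GPD1 cells (log2 fold change -0.66, SE 0.04, limma, adjusted p = 1.75e-07) and 1.2-fold in vector cells (log2 fold change -0.26, SE 0.04, limma, adjusted p = 0.000271), where the call was lost with median-ratio factors (-0.10, limma, adjusted p = 0.0712).

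**Figure D4:**
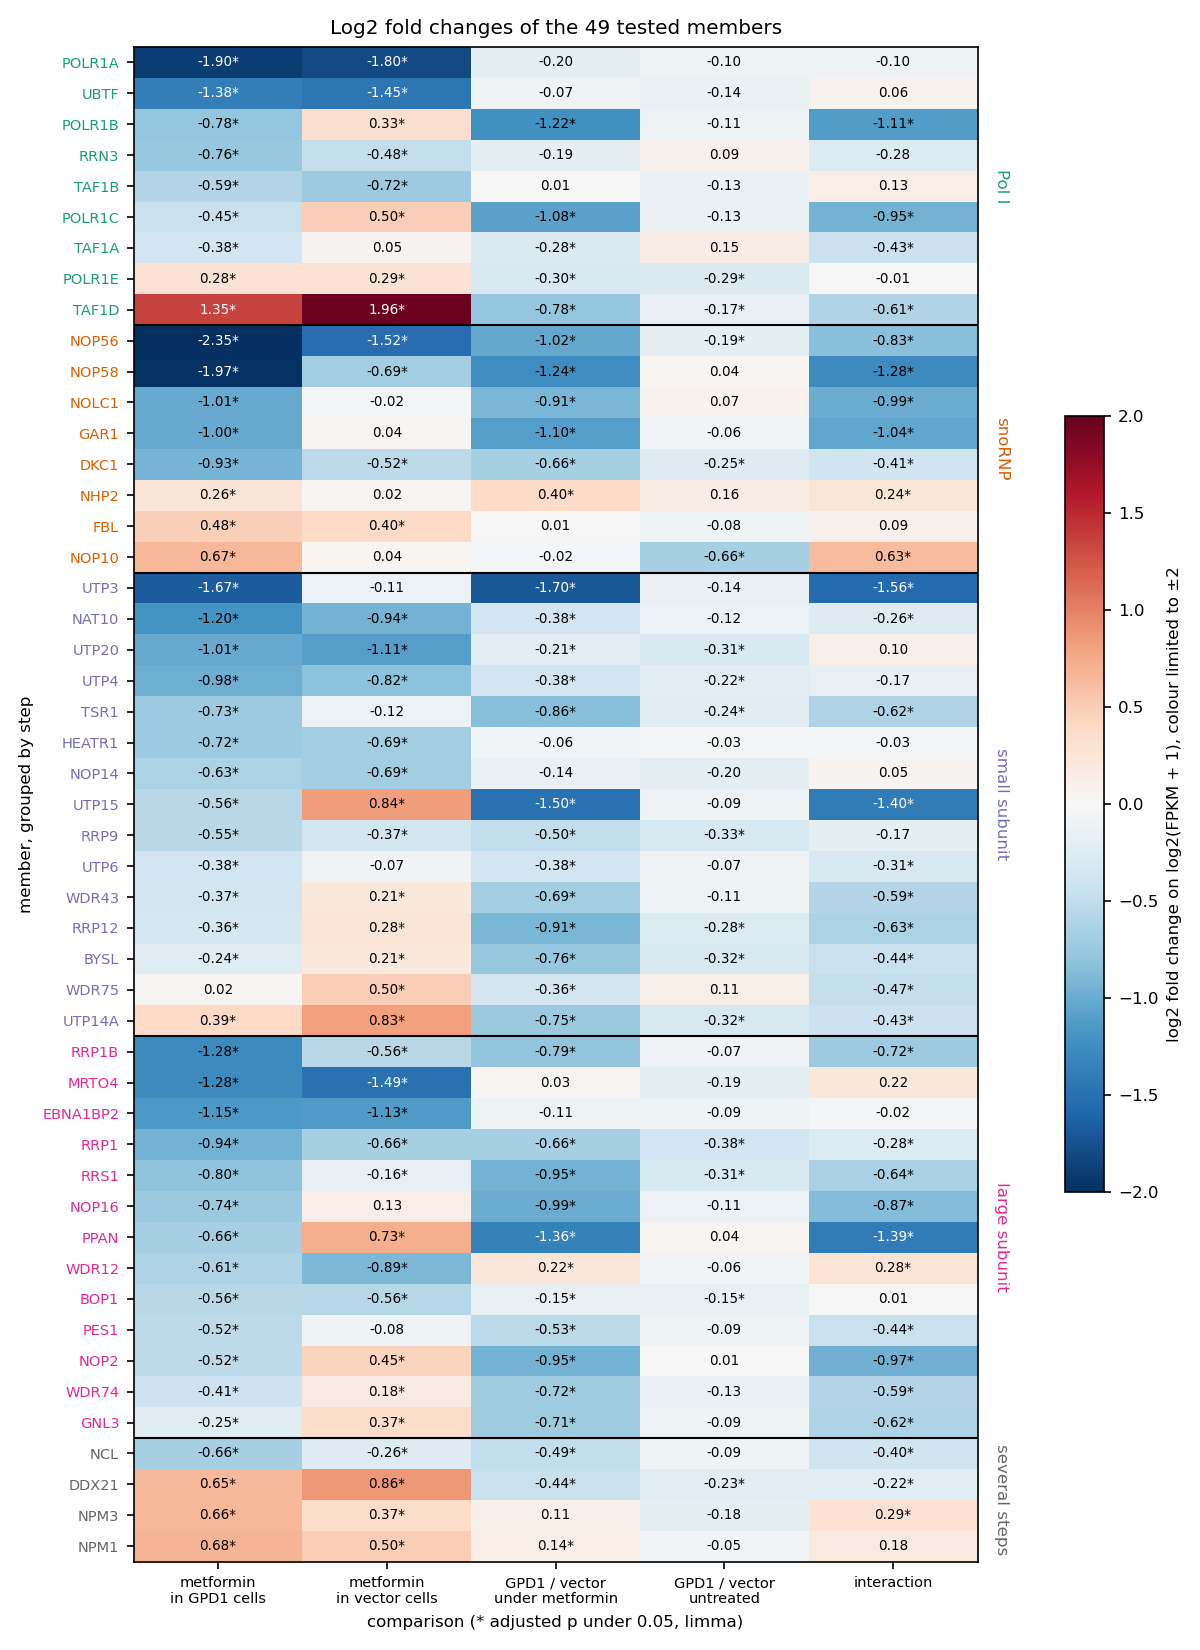
Log2 fold changes of the 49 tested members on log2(FPKM + 1), grouped by step (rows), in the 5 comparisons (columns), with a star at an adjusted p under 0.05 (limma). The column of metformin in GPD1 cells is lower for 39 members and that of metformin in vector cells for 21; the column of untreated GPD1 against vector cells is close to white, with 16 lower and 0 higher.

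The level of the list was also compared directly between GPD1 and vector cells, with libraries that the metformin comparisons use as well. Under metformin 35 members were lower in GPD1 cells and 3 were higher (limma, adjusted p under 0.05), against 35.0% and 25.0% of tested genes, with a median log2 fold change of -0.50, or -0.45 relative to all genes. Small subunit genes were lower in 13 of 15 cases, large subunit genes in 10 of 13, snoRNP genes in 5 of 8 and Pol I genes in 5 of 9. UTP3 showed the largest log2 difference, 3.75-fold lower in GPD1 cells (log2 fold change -1.70, SE 0.07, limma, adjusted p = 1.27e-08). UTP15 was 4.39-fold lower (log2 fold change -1.50, SE 0.12, limma, adjusted p = 2.01e-06) and PPAN 3.24-fold lower (log2 fold change -1.36, SE 0.27, limma, adjusted p = 0.00123). The 3 members that were higher were NHP2 at 0.40 (SE 0.05, adjusted p = 5.87e-05 by limma), WDR12 at 0.22 (SE 0.06, adjusted p = 0.00765 by limma) and NPM1 at 0.14 (SE 0.05, adjusted p = 0.0449 by limma). The calls of WDR12 and NPM1 were lost with FPKM totals without mitochondrial genes (limma, adjusted p = 0.0892 and 0.624), and that of NPM1 without any 1 of 7 single libraries. Those of BOP1, TAF1A and UTP20 were lost with median-ratio and with upper-quartile factors. The call of TAF1A was also lost without any 1 of 9 single libraries (limma, adjusted p = 0.0513 to 0.167). That of UTP20 was lost without any 1 of 3 (limma, adjusted p = 0.0583 to 0.0717).

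Without the drug the populations differed less. In untreated GPD1 cells 16 members were lower than in untreated vector cells and 0 were higher (limma, adjusted p under 0.05), against 11.3% and 9.99% of tested genes, with a median log2 fold change of -0.12, or -0.10 relative to all genes. At an unadjusted p under 0.05, 21 were lower and 2 were higher. The other 33 members did not pass the test, which does not show that they were equal. NOP10 was 1.57-fold lower in GPD1 cells (log2 fold change -0.66, SE 0.12, limma, adjusted p = 0.00289), with 54.6, 40.1 and 57.8 FPKM in GPD1 cells, against 78.0, 80.4 and 80.9 FPKM in vector cells. RRP1 stood at 4.54, 4.62 and 4.07 FPKM in GPD1 cells, against 6.41, 5.62 and 6.13 FPKM in vector cells, and was 1.37-fold lower (log2 fold change -0.38, SE 0.06, limma, adjusted p = 0.001). RRP9, a protein of the U3 snoRNP, stood at 15.6, 15.2 and 17.3 FPKM in GPD1 cells, against 20.9, 20.3 and 19.7 FPKM in vector cells. It was 1.27-fold lower (log2 fold change -0.33, SE 0.09, limma, adjusted p = 0.0296), a call lost without any 1 of 5 single libraries of these groups, at an adjusted p of 0.0568 to 0.0961 (limma). The other 13 were POLR1E, TAF1D, NOP56, DKC1, UTP4, UTP14A, UTP20, RRP12, BYSL, TSR1, BOP1, RRS1 and DDX21, at log2 fold changes of -0.32 to -0.15. Those of BOP1, BYSL, NOP56, TAF1D, DKC1 and RRP12 were also lost without single libraries. Leaving out single libraries left 9 to 17 members lower.

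Another 105 genes of the same pathway, listed by role apart from the 50, were all tested. With metformin 71 fell and 20 rose in GPD1 cells (67.6% and 19.0%, against 48.0% and 26.1% of all tested genes), at a median log2 fold change of -0.51, or -0.31 relative to all genes. In vector cells 50 fell and 31 rose (47.6% and 29.5%, against 43.3% and 31.3% of all tested genes, which is near the background), at a median of -0.13, or -0.03 relative to all genes. The interaction was negative for 56 and positive for 5 (53.3% and 4.76%, against 26.8% and 19.1%). The largest rise and the largest fall among them in GPD1 cells on the log2 scale were those of NOB1, the endonuclease that makes the mature end of the small subunit rRNA, at 42.0 ± 0.971 FPKM with metformin and 18.6 ± 0.253 FPKM without it, and of FTSJ3, a methyltransferase of pre-rRNA processing, at 1.21 ± 0.0427 FPKM with metformin and 9.09 ± 0.124 FPKM without it (mean ± SD, n = 3 each). NOB1 and FTSJ3 had log2 fold changes of 1.13 and -2.19 in GPD1 cells. POLR1D, a further Pol I subunit, stood at 8.50 ± 0.210 FPKM with metformin and 3.60 ± 0.276 FPKM without it in GPD1 cells, and NOL11, a processome protein, at 2.15 ± 0.302 FPKM with metformin and 9.10 ± 0.172 FPKM without it. In vector cells NOB1 rose by 1.39 and RSL24D1, a large subunit factor, by 1.21, while RUVBL1, an ATPase of snoRNP assembly, fell by 1.41 and FTSJ3 by 1.37. Of the 6 Pol I genes among the 105, 2 rose and 3 fell in GPD1 cells, and 3 rose and 3 fell in vector cells. Of the 10 snoRNP genes, 8 fell in GPD1 cells, and 6 fell and 1 rose in vector cells. Their interaction was negative for 2 and positive for 1. Its median was -0.05, against -0.62 for the snoRNP members of the list. The median interaction was -0.39 for the 41 small subunit genes and -0.38 for the 48 large subunit genes, against -0.43 and -0.59 for those of the list.

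Merged exon length was related weakly to the change with metformin, as in all genes. Across the 49 members Spearman's rho between length and log2 fold change was -0.22 in GPD1 cells and -0.19 in vector cells, against -0.24 and -0.17 across 12586 tested genes, which share libraries and depth and are not independent. For the interaction rho was -0.08 across members and -0.08 across genes. With a length trend removed in each library, the median of the members was -0.54 in GPD1 cells and -0.06 in vector cells.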

How the data were processed

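The deposited table holds FPKM for 58302 genes in 12 A549 libraries, as the authors computed them from polyadenylated RNA. Its header names no unit, and FPKM was inferred from the steps of low values. Times exon length, 65.8% to 70.0% of those low values are whole numbers of steps within 0.02. The step size was itself chosen to raise this share, and the values could be RPKM. The submitters' processing notes list HISAT2 2.1.0, CASAVA 1.8 and edgeR, the last without a version, and the build GRCh38/hg38. Which program computed the values, on which annotation, is not given in the sources used here. Exon lengths and loci come from GENCODE release 29, which has a length for 99.5% of genes and the same locus for 97.2%. The library kit (NEBNext Ultra) states no strand, per the labels' protocols.

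The 12607 genes whose mean was 1 FPKM or more were tested on log2(FPKM + 1) with limma 3.58.1 in R 4.3.3, with an intensity trend and 4 group means. A pseudocount of 1 understates the change of low genes, so folds are ratios of mean FPKM. P-values were adjusted over all tested genes by Benjamini-Hochberg, and calls were made under 0.05. The 5 comparisons share libraries. Tested on simulated data for metformin in GPD1 cells (12607 genes, 50 changed per fold), the fit recovered 54%, 88%, 94% and 96% of genes changed 1.5, 2, 3 and 4 times, with 4 false among 170 calls. The simulation used independent normal noise, with 200 genes raised in the treated group and no shift of the mitochondrial share. In the data most genes were called and that share moved, so these rates need not hold there.

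The members and lists were chosen with earlier results of these data known, and steps were assigned by hand. Values of every library are given for the 2 called members with the largest change per step and metformin comparison, for up to 2 called against their step's majority, for the 10 with the smallest interaction p and for the 3 with the largest change per direction between GPD1 and vector cells. Of the other pathway genes, the 2 with the largest change per direction were named. Alternatives were 4 scalings, a pseudocount of 0.1, no filter, a fit of only those groups that are compared, the replicate number as a block, removal of a length trend (splines with 5 degrees of freedom) and each library left out. Scaling by read totals without mitochondrial genes was added after seeing the data. Promoter letters were searched on both strands, with no mismatch.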

Additional observations from a re-analysis of the deposited data

Results flagged for a closer look

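The results listed here are those for which the change with metformin in GPD1 cells differed from that in vector cells by the interaction term of the fit (limma on log2(FPKM + 1), adjusted p under 0.05). Values are the log2 fold change in GPD1 cells minus that in vector cells. In the Pol I group they were -1.11 for POLR1B, -0.95 for POLR1C, -0.61 for TAF1D, which rose in both populations, and -0.43 for TAF1A. Among the snoRNP proteins they were -1.28 for NOP58, -1.04 for GAR1, -0.99 for NOLC1, -0.83 for NOP56, -0.41 for DKC1, 0.63 for NOP10 and 0.24 for NHP2. Small subunit genes had -1.56 for UTP3, -1.40 for UTP15, -0.63 for RRP12, -0.62 for TSR1, -0.59 for WDR43, -0.47 for WDR75, -0.44 for BYSL, -0.43 for UTP14A, -0.31 for UTP6 and -0.26 for NAT10. Large subunit genes had -1.39 for PPAN, -0.97 for NOP2, -0.87 for NOP16, -0.72 for RRP1B, -0.64 for RRS1, -0.62 for GNL3, -0.59 for WDR74, -0.44 for PES1, -0.28 for RRP1 and 0.28 for WDR12. The abundant nucleolar proteins had -0.40 for NCL, -0.22 for DDX21 and 0.29 for NPM3. The calls of NPM3 and TAF1A were each lost without any 1 of 8 libraries (limma, adjusted p = 0.0673 to 0.105 and 0.0658 to 0.103). With median-ratio and with upper-quartile factors those of TAF1A, NAT10, RRP1 and DDX21 were lost (limma, adjusted p = 0.0512 to 0.339), as was that of UTP6 under the upper-quartile scaling (adjusted p = 0.0586 by limma), and with FPKM totals without mitochondrial genes those of NHP2, NPM3 and WDR12 (limma, adjusted p = 0.0786 to 0.117). Because GPD1 and vector cells are 1 transduced population each as far as the labels tell, the part of GPD1 in these differences was not tested.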

How the results depend on the processing

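With FPKM totals without mitochondrial genes, 5 members rose with metformin in GPD1 cells, 7 in vector cells, 1 was higher in GPD1 than in vector cells under metformin, 1 without it, and 1 had a positive interaction. Those totals also turned the calls of POLR1E (to -0.083) and NHP2 (to -0.13, called lower) in GPD1 cells and of BYSL, WDR43 and WDR74 in vector cells. Upper-quartile factors gave 5 members higher under metformin and 8 with a positive interaction. Removal of a length trend gave 1 member higher in untreated GPD1 cells and 2 with a positive interaction. Leaving out single libraries gave 0 to 2 higher and 9 to 17 lower in untreated GPD1 cells. The cause was not tested. Over all tested genes, metformin in GPD1 cells raised 3293 and lowered 6056 genes, 4553 and 4693 with median-ratio factors, and 1706 and 8142 with FPKM totals without mitochondrial genes. In vector cells these counts were 3948 and 5463, 4753 and 4662, and 2683 and 6980. The fall of most members in GPD1 cells stayed at 37 to 39 members over single libraries left out. Same-numbered replicates did not deviate together (correlations of -0.07 to 0.06), and with replicate number as a block 39 members fell and 9 rose with metformin in GPD1 cells, 20 fell and 18 rose in vector cells, 34 and 2 differed under metformin, 13 and 0 without it, and 29 and 3 had an interaction. Of 1019 values of the 49 single-gene results chosen by rule under the 21 alternatives, 987 kept direction and call, 31 kept direction and lost the call, and 1 turned (POLR1E). The rules favour large changes, so this tally does not hold for all members. With FPKM totals without mitochondrial genes, 28 of the 39 member calls with metformin in vector cells were kept, 8 were lost and 3 turned. Few fragments limit POLR1B, PPAN and TAF1A, whose lowest libraries hold 69, 78 and 79.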
